A study of Mus musculus with 64 samples.

Results

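RNA was compared between 43 and 32 h in mouse embryos of the AC groups. The labels do not spell AC out, and it is taken to stand for aphidicolin. The comparison used the 6 arrays of AC embryos, 3 titled 43h-AC and 3 titled 32h-AC, of 64 arrays in the series and 36 in its treatment set. Each array held total RNA of Mus musculus embryos in one channel and a common RNA named Universal Reference in the other. Per the labels, the 43h-AC samples were early 2-cell embryos and the 32h-AC samples late 1-cell embryos. The groups set beside them had 3 arrays each. They were 43h-DMSO and 32h-DMSO (DMSO read as the solvent), 43h-Control and 32h-Control (controls of the same set) and 43h-AM and 32h-AM (AM read as α-amanitin). The treatment set also holds 21h-Control, 54h-Control, 54h-AM and 43h-CHX arrays (CHX read as cycloheximide), which entered the tests only through the shared estimate of spread. The other 28 arrays of the series are a stage set from unfertilized eggs to blastocysts. The labels give no strain, dose, number of pooled embryos or starting point of the hours. Whether arrays came from separate collections of embryos is not given in the sources used here, so p-values measure only spread between arrays. That spread, and with it each SE, was estimated over all 36 treatment-set arrays and not from the AC arrays alone.

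Aphidicolin inhibits the replicative DNA polymerases, so that S phase cannot be completed, while α-amanitin inhibits RNA polymerase II. In the mouse, the embryo destroys a large share of the messages stored in the egg and begins its own transcription between the 1-cell and 2-cell stages, and aphidicolin has long been used to ask which of these events need DNA synthesis. If the block held, the AC arrays at 43 and 32 h bear on which messages go on changing without DNA synthesis. Whether it held was not tested here, and the labels call the 43h-AC samples early 2-cell embryos. Cdkn1a, a p53 target that is a usual readout of stalled replication, was among the genes examined.

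Each value is the log2 of embryo over reference signal with the array's median set to 0, so it is a level relative to the reference and a difference of 1 is 2-fold. The direction is likely, not settled: in unfertilized eggs, all 10 measured genes of an oocyte list exceeded the common RNA, and all 10 were higher in eggs than in blastocysts. Were that reading wrong, rises would be falls and falls rises throughout. The deposited values stop at ratios that correspond to 6.64 on this log2 scale, so a value near that size, before centring, is a bound. With total RNA of whole embryos, fewer embryos in a sample and less RNA per embryo cannot be told apart from one another, and centring each array removes both. Of 22575 probes, 4262 carried 1 gene symbol (3089 genes), and genes are named from those probes.

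The 3 arrays titled 43h-AC did not resemble each other equally. On a line where the mean of the 32h-DMSO arrays is 0 and that of the 43h-DMSO arrays is 1, 43h-AC arrays 1, 2 and 3 lay at 0.33, 1.29 and 1.08, against 0.16, 0.15 and 0.02 for the 32h-AC arrays. Array 1 of 43h-AC was thus closer to the 32h-AC arrays than to the other 43h-AC arrays. Across all probes, its mean Pearson correlation with the other 43h-AC arrays was 0.76, and with the 32h-AC arrays 0.934. The spread of log ratios moved with this: the interquartile range was 1.52, 2.60 and 2.15 on 43h-AC arrays 1, 2 and 3, against 1.59, 1.59 and 1.22 on the 32h-AC arrays (counts with this spread made equal follow). Array 3 of 32h-AC had the narrowest range and 5 features at the upper limit, where the other AC arrays had 317 to 415. Among the other groups, 21h-Control array 1 lay at 1.06 on the same line and the other 2 arrays of 21 h controls at 0.29 and 0.59. It entered only the shared estimate of spread. Because array 1 of 43h-AC goes against its label's hour in this way, the counts, and the genes described by array, are given with and without it. Array 2 of 43h-AC was also apart. Its mean correlation with the 43h-DMSO arrays was 0.826, against 0.903 for array 1 and 0.909 for array 3, and with the other 43h-AC arrays it was 0.797. Fits without array 1 thus rest in part on another array that stands apart.

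**Figure D1:**
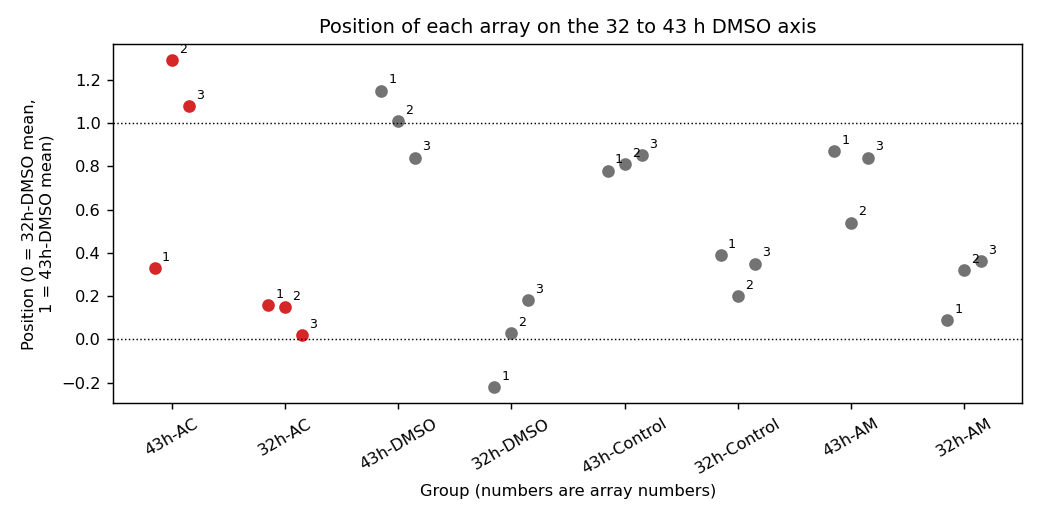
Position of each AC, DMSO, control and AM array (points, numbered by array) on the line from the 32h-DMSO mean (0) to the 43h-DMSO mean (1), in units of that distance. Array 1 of 43h-AC lies at 0.33, nearer the 32h-AC arrays (0.02 to 0.16) than 43h-AC arrays 2 and 3 (1.29 and 1.08). The DMSO arrays define the line, so their own positions are no result.

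With all arrays, 3140 of 22575 probes (13.9%) differed between 43h-AC and 32h-AC (limma on all 36 treatment-set arrays, two-sided, Benjamini-Hochberg adjusted p under 0.05). Of these, 1111 (4.92% of all probes) rose and 2029 (8.99%) fell. When 43h-AC array 1 was left out, 10461 probes (46.3%) differed, 5815 (25.8%) higher and 4646 (20.6%) lower. Arrays of the hours did not overlap for 2062 probes higher at 43 h (9.13%) and 2088 lower (9.25%), and for 8891 (39.4%) and 6008 (26.6%) without array 1. The median difference over all probes was 0.17 with all arrays and 0.26 without array 1, and gene values below are read against those medians. With every array scaled to 1 interquartile range, 4615 probes were called with all arrays, 2222 of them among the 3140, and 9310 without array 1, 6662 of them among the 10461. The number of calls turned on single arrays. It was 10461 without 43h-AC array 1, 627 without 43h-AC array 2 and 1110 without 43h-AC array 3, and 1373, 1330 and 1080 without 32h-AC arrays 1, 2 and 3. When only the 6 AC arrays estimated the spread, limma called 0 probes (2726 at an unadjusted p under 0.05).

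Shares were also taken by level. Of 11456 probes above the median level in 32 h controls, 6.7% rose and 10.4% fell in AC embryos, while of the 11119 others, 3.09% rose and 7.51% fell. With 43h-AC array 1 left out, the shares that rose were 34.8% and 16.5%, and the shares that fell 20% and 21.2%.

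The largest falls reached 4.46 on the log2 scale. By a fixed rule the 14 named genes of largest difference in each direction were taken, each by 1 probe. Of the 14 falls, 13 had no overlap between the 43h-AC and the 32h-AC arrays, a pattern that 9.25% of all probes showed in that direction. Since this contrast chose them, these counts describe the genes and are no test.

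Rgs2, which speeds the shut-off of G proteins coupled to calcium signalling, stood at 1.54, -1.81 and -0.98 on the 43h-AC arrays, against 3.67, 3.75 and 3.79 on the 32h-AC arrays. Every 43h-AC array was below every 32h-AC array, with array 1 the least lowered. The difference was -4.15 ± 0.53 (SE, adjusted p = 1.5e-05, and -5.13 without array 1), and -5.13 without 43h-AC array 1 (adjusted p = 2.5e-08). Msh6, which recognises mismatched bases after replication, stood at -1.24, -3.47 and -2.59 on the 43h-AC arrays, against 1.48, 1.81 and 1.74 on the 32h-AC arrays. Its groups did not overlap, and all 3 arrays at 43 h lay below the array median while all 3 at 32 h lay above it. The difference was -4.11 ± 0.53 (SE, adjusted p = 1.5e-05, and -4.70 without array 1), and -4.70 without 43h-AC array 1 (adjusted p = 1.1e-06).

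Hsp90aa1, the inducible cytosolic Hsp90 chaperone, stood at -2.53, -4.68 and -4.02 on the 43h-AC arrays, against -0.05, 0.24 and -0.07 on the 32h-AC arrays. The 32h-AC arrays were near the array median and the 43h-AC arrays all far below it, with a difference of -3.78 ± 0.54 (SE, adjusted p = 6.5e-05, and -4.39 without array 1). Its co-chaperone Dnajc7, which carries J and TPR domains, stood at -3.10, -6.68 and -5.03 on the 43h-AC arrays, against -1.57, -1.19 and -1.06 on the 32h-AC arrays. Array 2 at 43 h was at the lower limit, so the difference of -3.66 ± 0.59 (SE, adjusted p = 0.00019, and -4.58 without array 1) is a bound on that side. Ppia, the peptidyl-prolyl isomerase cyclophilin A, stood at -3.89, -6.68 and -3.58 on the 43h-AC arrays, against -0.68, -0.79 and -1.60 on the 32h-AC arrays. All 43h-AC arrays, array 2 again at the limit, were below all 32h-AC arrays, with a difference of -3.70 ± 0.58 (SE, adjusted p = 0.00016, and -4.11 without array 1).

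Of the spindle genes, Aspm, which organises microtubules at spindle poles, stood at 1.31, -1.73 and -0.03 on the 43h-AC arrays, against 3.36, 3.67 and 3.83 on the 32h-AC arrays. The groups did not overlap, and the difference was -3.77 ± 0.44 (SE, adjusted p = 5.7e-06, and -4.50 without array 1). Cenpe, a kinesin of the kinetochore that aligns chromosomes, stood at 1.07, -1.61 and -0.60 on the 43h-AC arrays, against 3.66, 3.19 and 2.99 on the 32h-AC arrays. Its difference was -3.66 ± 0.50 (SE, adjusted p = 3.5e-05, and -4.38 without array 1), and all 3 probes of the gene fell. Hells, a helicase of the SNF2 family needed for DNA methylation, stood at -0.42, -2.74 and -1.92 on the 43h-AC arrays, against 1.66, 2.24 and 1.77 on the 32h-AC arrays, without overlap, a difference of -3.59 ± 0.58 (SE, adjusted p = 0.00023, and -4.22 without array 1). Of the 14 falls, 10 (Rgs2, Acat1, Msh6, Luc7l3, Hsp90aa1, Aspm, Ppia, Dnajc7, Cenpe and Hells) passed the threshold in each of the 6 fits that left out 1 AC array and under all 3 other scalings (as deposited, quantile and to 1 interquartile range).

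In other falls, 43h-AC arrays 2 or 3 were the lowest. Cstf3, a subunit of the factor that cleaves the 3' end of messages, stood at -2.91, -6.68 and -6.65 on the 43h-AC arrays, against -1.19, -0.81 and -0.87 on the 32h-AC arrays, with arrays 2 and 3 at the lower limit. Its difference was -4.46 ± 1.04 (SE, adjusted p = 0.0067, and -5.71 without array 1), again a bound, and 1 of its 4 probes fell. Zbed3, a zinc finger protein, stood at 4.55, -3.31 and -0.01 on the 43h-AC arrays, against 4.44, 5.36 and 4.15 on the 32h-AC arrays. Array 1 lay inside the range of the 32h-AC arrays, and arrays 2 and 3 were far below it. The difference was -4.24 ± 1.11 (SE, adjusted p = 0.015, and -6.31 without array 1), and -6.31 without 43h-AC array 1 (adjusted p = 1.2e-05). Morf4l1, a chromodomain protein of histone acetyltransferase complexes, fell by 4.20 on the log2 scale, and Acat1, a mitochondrial thiolase, by 4.14. Pnn, which acts with splicing factors, fell by 3.98 on the log2 scale and passed the threshold in 1 of the 6 fits that left out an AC array. Luc7l3, a splicing factor related to yeast Luc7, fell by 3.83 on the log2 scale on the named probe, and 1 of its 3 probes fell with all arrays. Another of its probes rose without 43h-AC array 1. The named probes of Acat1, Pnn and Luc7l3 had a value at a limit on the AC arrays, so these differences are not exact.

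The largest rises were smaller, up to 2.77 on the log2 scale. Of the 14 genes, 10 had no overlap between the 43h-AC and 32h-AC arrays, a pattern that 9.13% of all probes showed in that direction. Rnf11, a RING protein that works with ubiquitin ligases, stood at -3.59, -3.48 and -3.59 on the 43h-AC arrays, against -5.56, -5.96 and -6.75 on the 32h-AC arrays. The 43h-AC arrays, array 1 included, were close together and above all 32h-AC arrays, of which array 3 was at the lower limit. The difference, there a bound, was 2.54 ± 0.55 (SE, adjusted p = 0.0036, and 2.56 without array 1). Tspan4, a tetraspanin of the cell surface, stood at -4.08, -2.63 and -3.12 on the 43h-AC arrays, against -6.13, -5.60 and -5.02 on the 32h-AC arrays, without overlap. The difference was 2.30 ± 0.50 (SE, adjusted p = 0.0036, and 2.71 without array 1), and 2.71 without 43h-AC array 1 (adjusted p = 0.00037). Jade1, a subunit of histone acetyltransferase complexes that hold HBO1, stood at -1.63, -0.76 and -0.71 on the 43h-AC arrays, against -2.73, -2.80 and -3.36 on the 32h-AC arrays. The groups did not overlap, and the difference was 1.93 ± 0.37 (SE, adjusted p = 0.0011, and 2.23 without array 1). Its other probes did not pass the threshold in that direction. Rnf11, Tspan4 and Jade1 were the rises that passed it in each of the 6 fits without 1 AC array and under all 3 other scalings.

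The promoters of Tspan4 and Jade1 are shown because their messages rose in every one of those fits. Each runs from 250 bases before to 50 bases after the gene's start, 5′ to 3′ on the gene's strand, from the first entry for the gene in the RefSeq table (GRCm38.p6). Capitals mark the GC box GGGCGG or its reverse complement CCGCCC. Tspan4 lies at chr7:141474986-141475285 (plus strand) and Jade1 at chr3:41555484-41555783 (plus strand).
Tspan4: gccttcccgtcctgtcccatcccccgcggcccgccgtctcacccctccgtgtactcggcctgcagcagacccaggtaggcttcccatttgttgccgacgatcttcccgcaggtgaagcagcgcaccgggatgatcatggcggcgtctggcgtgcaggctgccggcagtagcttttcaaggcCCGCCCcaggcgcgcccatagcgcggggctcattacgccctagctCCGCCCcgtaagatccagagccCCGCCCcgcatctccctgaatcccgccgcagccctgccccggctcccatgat
Jade1: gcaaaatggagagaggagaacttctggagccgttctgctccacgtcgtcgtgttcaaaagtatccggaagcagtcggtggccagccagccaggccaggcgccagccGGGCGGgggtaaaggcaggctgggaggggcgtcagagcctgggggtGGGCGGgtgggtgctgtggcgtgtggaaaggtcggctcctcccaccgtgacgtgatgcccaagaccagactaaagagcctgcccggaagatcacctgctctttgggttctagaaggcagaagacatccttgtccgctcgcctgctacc
The Tspan4 window held 3 GC boxes and the Jade1 window 2. Of the 14 named rises, 10 had an entry, and 6 of the 10 held a GC box on either strand, against 35.7% of all 32851 promoter windows of the same length. The CCAAT box (CCAAT or ATTGG) was found in 1 of the 10, against 37.4% of all, and TATAAA (or TTTATA) in 0 of the 10, against 13.6%. These counts describe letters in a window and are not evidence of a bound factor.

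Smarca5, the ATPase of the ISWI remodellers, had the largest rise. It stood at 0.96, -1.56 and -0.23 on the 43h-AC arrays, against -2.73, -2.87 and -3.55 on the 32h-AC arrays. Array 1 was the highest of the 43 h arrays, and the difference was 2.77 ± 0.69 (SE, adjusted p = 0.011, and 2.15 without array 1), although 1 of its 3 probes passed. Xylt2, which starts the sugar chains of proteoglycans, stood at -3.49, -0.67 and -2.93 on the 43h-AC arrays, against -5.07, -4.56 and -4.35 on the 32h-AC arrays, a difference of 2.30 ± 0.52 (SE, adjusted p = 0.005, and 2.86 without array 1). Bcor, the BCL6 corepressor, stood at -0.17, 1.41 and 0.88 on the 43h-AC arrays, against -1.84, -0.99 and -1.16 on the 32h-AC arrays, a difference of 2.04 ± 0.47 (SE, adjusted p = 0.0065, and 2.48 without array 1). In both genes every 43h-AC array was above every 32h-AC array. Gja1, the gap junction protein connexin 43, stood at -5.19, -4.47 and -4.81 on the 43h-AC arrays, against -6.76, -6.68 and -6.75 on the 32h-AC arrays. The 32h-AC arrays lay at or next to the lower limit, 2 of them at it, so the rise of 1.90 ± 0.46 (SE, adjusted p = 0.0085, and 2.09 without array 1) is a bound.

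Scfd1, which serves vesicle fusion between endoplasmic reticulum and Golgi, Lrfn5, a synaptic adhesion protein, Birc6, a very large inhibitor of apoptosis, and Rab11fip1, an effector of recycling endosomes, rose by 2.25, 2.12, 1.91 and 1.88 on the log2 scale. In these 4 genes the value of 43h-AC array 1 lay below the highest 32h-AC array, and array 2 of 43h-AC was at the upper limit for Scfd1 and Lrfn5. With arrays scaled to 1 interquartile range all 4 calls were lost, with differences of 0.75 for Scfd1, 0.48 for Lrfn5, 0.52 for Birc6 and 0.74 for Rab11fip1 (adjusted p = 0.25, 0.58, 0.59 and 0.086). Fam102b, Rnf125, a ubiquitin ligase, and Slit1, a guidance ligand for axons, rose by 2.41, 2.00 and 1.96 on the log2 scale. Slit1 stood at 1.40 under that scaling (adjusted p = 0.067). It passed the threshold in 1 of 6 fits without an AC array, Rnf125 and Birc6 in 2 and Fam102b in 3. Fam102b had a value at a limit on the AC arrays, so its difference is not exact.

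**Figure D2:**
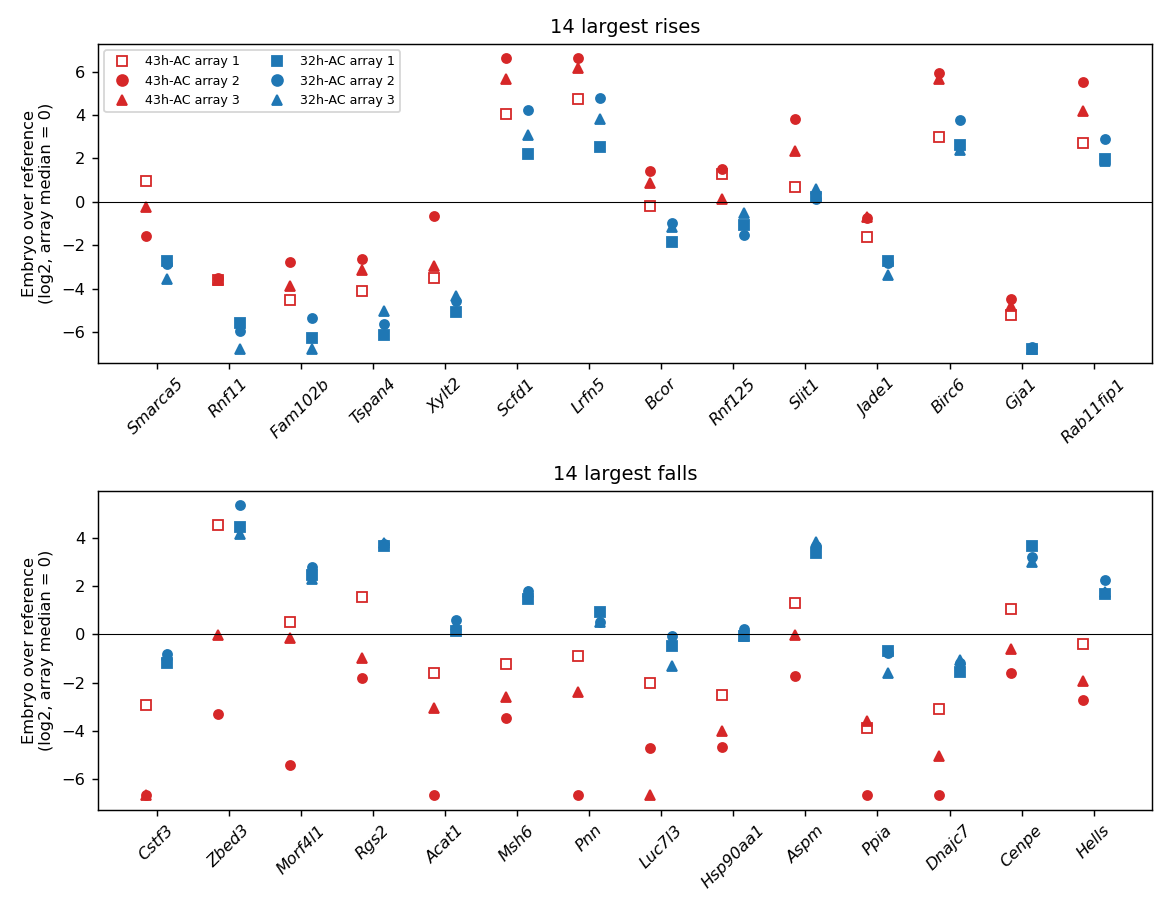
Level (log2 of embryo over reference, array median at 0) of the 14 named genes with the largest rise and the 14 with the largest fall, on each 43h-AC array (red, array 1 open) and each 32h-AC array (blue). Of the rises 10 and of the falls 13 have no overlap between the hours, and in Zbed3 the open square (4.55) lies among the 32 h points.

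Without 43h-AC array 1, the 14 rises and 14 falls all passed the threshold, and differences were larger in 12 of the rises and in all 14 falls. The rule that chose them, used in the fit without array 1, brought in further genes. The rises added Tbl1x, a subunit of corepressor complexes, Hook1, a linker of endosomes to microtubules, the amino acid transporter Slc38a1, the ubiquitin ligase Trip12, Tiam1, which activates Rac, Ppp2ca and Ppp2r2b, the catalytic and a regulatory subunit of protein phosphatase 2A, Eid1, an inhibitor of p300, and Ikzf1, the zinc finger factor Ikaros. Tbl1x stood at -1.28, 2.82 and 2.57 on the 43h-AC arrays, against -1.98, -0.27 and -0.16 on the 32h-AC arrays. Arrays 2 and 3 at 43 h were above all 32h-AC arrays, and array 1 was among them. With all arrays its difference was 2.17 ± 0.89 (SE, adjusted p = 0.085, and 3.50 without array 1), and 3.50 without 43h-AC array 1 (adjusted p = 0.0016). With all arrays none of these 9 passed the threshold on the named probe, with adjusted p between 0.074 for Trip12 and 0.27 for Ppp2r2b by limma. Scaled to 1 interquartile range, Ikzf1, Ppp2ca and Ppp2r2b did not pass without array 1 either, at 1.29, 1.51 and 1.56 (adjusted p = 0.28, 0.19 and 0.29).

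The falls added Ecpas, a scaffold of the proteasome, the histone methyltransferase Kmt2c, Thada and the sialyltransferase St3gal6. Each passed the threshold with all arrays too, with differences of -3.22, -3.21, -3.18 and -2.90. Thada had a value at a limit on the AC arrays, so its difference is not exact. Ecpas stood at 2.01, -5.49 and -0.50 on the 43h-AC arrays, against 2.05, 1.74 and 1.88 on the 32h-AC arrays. Array 1 lay among the 32h-AC arrays, array 2 was far below them and array 3 lay between. St3gal6 stood at 2.34, -4.73 and -0.67 on the 43h-AC arrays, against 1.86, 1.94 and 1.83 on the 32h-AC arrays, with array 1 the highest of all 6. The same order held in Kmt2c and Thada, with array 2 lowest and array 1 nearest the 32h-AC values. In these 4 genes, 43h-AC array 1 thus showed no fall. Ecpas and Kmt2c passed in 2 of 6 and Thada and St3gal6 in 1 of 6 fits without an AC array. Without 43h-AC array 2 the differences were -1.14 for Ecpas, -1.02 for Kmt2c, -1.39 for Thada and -1.04 for St3gal6, with adjusted p of 0.36, 0.43, 0.37 and 0.48.

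Many of the measured genes of mitosis and the spindle fell. Of 47 listed genes 19 were measured, each by 1 probe fixed for the list, and 10 fell and 0 rose with all arrays, against 8.99% and 4.92% of all probes. Their median difference was -1.36, against 0.17 for all probes. Leaving out 43h-AC array 1, 14 fell and 2 rose, with a median of -1.61, against 20.6% and 25.8% of all probes. In DMSO, control and AM embryos, 11, 9 and 8 of the 19 fell between the same hours, against 7.25%, 2.16% and 1.94% of all probes. There 1, 0 and 0 rose, and the medians were -1.11, -0.99 and -0.78, so the fall was not particular to AC embryos. The genes of largest fall included Cdc20, the activator of the anaphase-promoting complex, at -1.84, -3.84 and -3.08 on the 43h-AC arrays, against 0.03, 0.14 and 0.69 on the 32h-AC arrays. The groups did not overlap, and the difference was -3.21 ± 0.44 (SE, adjusted p = 3.5e-05, and -3.75 without array 1). Prc1, which bundles microtubules of the central spindle, stood at -1.07, -2.39 and -1.63 on the 43h-AC arrays, against 1.28, 1.18 and 1.36 on the 32h-AC arrays, with a difference of -2.97 ± 0.40 (SE, adjusted p = 2.3e-05, and -3.29 without array 1). Kif20a, a kinesin of cytokinesis, fell by 2.37 and the kinase Aurka by 2.36 on the log2 scale. Aurka stood at -1.14, -0.78 and -1.41 on the 43h-AC arrays, against 1.13, 1.68 and 0.93 on the 32h-AC arrays, and 43h-AC array 1 was as low as the other 43 h arrays.

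Of 46 listed genes of DNA replication 15 were measured, and 4 fell and 0 rose with all arrays, with a median of 0.08, against 8.99% and 4.92% of all probes and a median of 0.17. By each gene's probe of largest difference, 7 of the 15 fell and 0 rose, with a median of -1.0. Cdt1, which loads the MCM helicase at origins, stood at -1.09, -3.77 and -2.82 on the 43h-AC arrays, against 0.29, 0.60 and 1.05 on the 32h-AC arrays. All 43 h values were below all 32 h values, with a difference of -3.20 ± 0.51 (SE, adjusted p = 0.00017, and -3.94 without array 1). Mcm2, a subunit of that helicase, stood at -0.28, -0.51 and -0.23 on the 43h-AC arrays, against 0.94, 0.78 and 0.70 on the 32h-AC arrays. The 43h-AC arrays were close together, array 1 included, and all below the 32h-AC arrays, and the difference was -1.15 ± 0.20 (SE, adjusted p = 0.0004, and -1.18 without array 1). Mcm3, another subunit, stood at 0.43, 1.46 and 1.98 on the 43h-AC arrays, against 0.39, 0.48 and 0.32 on the 32h-AC arrays. With all arrays its difference was 0.89 ± 0.31 (SE, adjusted p = 0.052, and 1.33 without array 1), and 1.33 without 43h-AC array 1 (adjusted p = 0.001).

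Orc4, of the origin recognition complex, fell by 2.39 on the log2 scale. Cdc7, the kinase that fires licensed origins, stood at -1.81, -2.28 and -2.94 on the 43h-AC arrays, against -0.39, -0.54 and -0.70 on the 32h-AC arrays. Its groups did not overlap, and the difference was -1.80 ± 0.29 (SE, adjusted p = 0.00022, and -2.06 without array 1). After leaving out 43h-AC array 1, 6 of the 15 fell and 5 rose, against 20.6% and 25.8% of all probes, and Pole2, the second subunit of DNA polymerase epsilon, rose by 1.89 and Mcm3 by 1.33 on the log2 scale. With the arrays scaled to 1 interquartile range, the Pole2 difference without array 1 was 0.47 (adjusted p = 0.53). Probes of one gene disagreed in Top1, a topoisomerase: one fell by 1.85 on the log2 scale, and another stood 1.01 higher with all arrays (adjusted p = 0.066 by limma) and rose by 1.26 without array 1. Pole2 and Top2a also had one probe that fell with all arrays and another that rose without array 1.

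Deoxynucleotide supply had 6 of 20 genes measured, of which 1 fell and 0 rose, against 8.99% and 4.92% of all probes. Tk1, thymidine kinase, stood at -1.85, -4.17 and -2.77 on the 43h-AC arrays, against -1.74, -1.47 and -1.14 on the 32h-AC arrays. Array 1 at 43 h was next to the 32h-AC arrays and the others below them, with a difference of -1.48 ± 0.40 (SE, adjusted p = 0.017, and -2.02 without array 1). Rrm2, the small subunit of ribonucleotide reductase, fell by 1.63 on the log2 scale on one probe, at -1.79, -2.50 and -2.89 on the 43h-AC arrays, against -1.25, -0.43 and -0.59 on the 32h-AC arrays. Its other probe, which stood for the gene in the list, had a difference of 0.75 ± 0.30 (SE, adjusted p = 0.077, and 1.10 without array 1) and rose without array 1, so the direction of Rrm2 was not settled by these probes.

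Checkpoint and repair genes had 12 of 46 measured, of which 2 fell and 0 rose, against 8.99% and 4.92% of all probes. They were Msh6 above and Trp53bp1 (53BP1, a mediator at double-strand breaks), which fell by 1.80 on the log2 scale. Wee1, the kinase that restrains Cdk1, had a difference of 0.18 ± 0.36 (SE, adjusted p = 0.73, and 0.05 without array 1). Cdk1 itself, the mitotic kinase, stood at -3.94, -4.93 and -4.15 on the 43h-AC arrays, against -3.37, -3.27 and -2.55 on the 32h-AC arrays and fell, with a difference of -1.27 ± 0.32 (SE, adjusted p = 0.011, and -1.47 without array 1). With arrays scaled to 1 interquartile range the Cdk1 difference was -0.08 (adjusted p = 0.89), and 4 of 6 fits without an AC array called it. Cyclins and their kinases had 9 of 31 measured, of which 2 fell and 0 rose, against the same shares of all probes. They were Cdk1 and Ccnc, a cyclin of the Mediator complex, which fell by 1.77 on the log2 scale.

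Cdkn1a, the p21 inhibitor of cyclin-dependent kinases, did not pass the threshold in AC embryos on centred values. It stood at -2.51, -2.74 and -3.19 on the 43h-AC arrays, against -3.23, -3.34 and -3.54 on the 32h-AC arrays. The 43h-AC arrays were all above the 32h-AC arrays, by a mean of 0.56 ± 0.29 (SE, adjusted p = 0.16, and 0.41 without array 1). The scaling mattered here: with arrays scaled to 1 interquartile range, the Cdkn1a difference without array 1 was 1.99 (adjusted p = 0.00035 by limma). In DMSO embryos the same probe rose by 1.82 on the log2 scale (adjusted p = 0.00012 by limma). The difference of these changes without 43h-AC array 1 was -1.41 ± 0.42 (SE, adjusted p = 0.093 by limma), so a difference in the change between AC and DMSO embryos was not shown. At 43 h itself the difference of AC from DMSO embryos in Cdkn1a was -1.35 on the log2 scale without that array (adjusted p = 0.0061 by limma) and -1.20 with it (adjusted p = 0.11). Of 25 p53 targets listed, Cdkn1a and Plk2 were measured, and neither passed. The fixed list of single genes also held Mdm2, Ccng1, Btg2, Pcna, the other MCM subunits, Rrm1, Ccnb1, Ccna2 and Chek1, for which no probe carried that symbol alone.

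Chaperones fell in 7 of 20 measured genes and rose in 1, with a median difference of -0.62, against 8.99% and 4.92% of all probes and a median of 0.17. Besides Hsp90aa1 and Dnajc7, Hspa9, the mitochondrial Hsp70, fell by 2.47 and Dnaja1, a partner of Hsp70, by 2.30 on the log2 scale. Hsph1, the Hsp110 chaperone, was the exception. It stood at -4.66, -5.58 and -5.40 on the 43h-AC arrays, against -6.76, -6.69 and -6.75 on the 32h-AC arrays, with every 32h-AC array at the lower limit. The rise was thus at least 2.87-fold (adjusted p = 0.0039 by limma).

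Mitochondrial respiration had 4 of 10 measured genes lower and 0 higher, against 8.99% and 4.92% of all probes. Sdha, the flavoprotein of succinate dehydrogenase, stood at -2.49, -3.72 and -2.48 on the 43h-AC arrays, against 0.08, -0.22 and -0.37 on the 32h-AC arrays, without overlap, a difference of -2.73 ± 0.39 (SE, adjusted p = 5.6e-05, and -2.93 without array 1). Atp5b and Atp5g1, of the ATP synthase, and Uqcrc2, of the third respiratory complex, fell by 2.41, 2.00 and 1.96 on the log2 scale. Of 10 measured oocyte and maternal genes 3 fell and 0 rose, against the same shares of all probes. They were Rgs2, Sycp2, of the synaptonemal complex, which passed in 1 of 6 fits without an AC array, and Plat, the tissue plasminogen activator. Btg4, an adapter for removal of poly(A) tails, was at the upper limit on all 6 arrays, so no difference can be given.

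Splicing factors fell in 7 of 32 measured genes and rose in 1, against 8.99% and 4.92% of all probes. Sf3b2 fell by 2.33 on the log2 scale and passed in all 6 fits without an AC array. Hnrnpa2b1 fell by 2.25 but passed in 1 of those 6. Rbm5, a splicing regulator and the rise, had a difference of 1.30, passed in 1 of the 6 and under 0 of 3 other scalings (0.81 scaled to 1 interquartile range, adjusted p = 0.15). Of the probes for Sf3a1, one fell with all arrays and another rose without array 1. Chromatin genes fell in 4 of 25 and rose in 1, against the same shares of all probes. Tet3, the dioxygenase that oxidises methylated cytosine, stood at 2.31, -0.32 and 0.46 on the 43h-AC arrays, against 2.59, 2.15 and 2.71 on the 32h-AC arrays, and fell by 1.66 on the log2 scale. Array 1 at 43 h lay inside the range of the 32h-AC arrays. The histone deacetylase Sirt1 fell by 1.73 on the log2 scale.

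The genes of these lists named above as risen or fallen with all arrays also passed the threshold, in the same direction, without 43h-AC array 1. Counts for the other lists, and for some of those above, depended on the probe that stood for a gene. By each gene's probe of largest difference, 13 of 32 splicing factors, 10 of 25 chromatin genes and 4 of 12 checkpoint and repair genes fell. On such probes 2, 2 and 0 of them rose. With 1 probe chosen by level, of 12 translation factors 2 fell and 0 rose, of 12 nucleolar genes 2 fell and 1 rose, of 18 genes of deadenylation and decay 2 fell and 2 rose, of 9 genes of RNA polymerase II and general transcription 1 fell and 1 rose, and of 23 cytosolic ribosomal proteins 1 fell and 1 rose. Of all probes 8.99% fell and 4.92% rose, so these small counts show nothing particular to the lists. Neither of 2 core histone genes and none of 4 genes listed for activation at the 2-cell stage passed on the probe of the list. By each gene's probe of largest difference, 6 of 12 translation factors and 5 of 12 nucleolar genes fell, as did 2 of 4 genes of the 2-cell list, with medians of -0.91, -0.77 and -0.79. A probe chosen this way favours large differences, and no share over all genes was taken by that rule, so these counts have no background. The means over a gene's probes had medians of -0.44, -0.34 and -0.28. The nucleolar genes Nolc1 and Ncl (nucleolin) fell by 2.85 and 2.10 on the log2 scale on such probes, and passed in all 6 fits without an AC array. With arrays scaled to 1 interquartile range Ncl stood at -1.06 (adjusted p = 0.06). Of 11 proteasome genes 1 fell and 1 rose, against 8.99% and 4.92% of all probes. Psmd4, its ubiquitin receptor, fell by 2.58 and Psmd3, a lid subunit, rose by 1.62 on the log2 scale, a call made in 1 of 6 fits without an AC array. Once 43h-AC array 1 was left out, 7 proteasome genes rose and 1 fell, against 25.8% and 20.6% of all probes, with a median of 0.90 against 0.26 for all probes. Psme3, Psmd14, Psmb8, Psmd2 and Psmd11 then rose by 1.71, 1.56, 1.30, 1.12 and 0.90 on the log2 scale. With array 2 left out too, which leaves 1 array at 43 h, their differences were 0.71, 1.29, 1.00, 0.80 and 0.53. In DMSO, control and AM embryos 1, 0 and 0 of the 11 rose, against 13.2%, 0.23% and 0.483% of all probes.

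Markers of other cells were few. None of 17 sperm genes was measured. Of 23 cumulus and granulosa genes 3 were measured and 0 passed, with summed levels of -5.17 to -0.54 on the 43h-AC arrays and -4.48 to -3.30 on the 32h-AC arrays, and 1 of the 3 was above the reference on every array. The blood marker Ptprc was below the reference on all 6 arrays, and rose by 1.30 on the log2 scale without 43h-AC array 1. Their part in the differences was not tested. The oocyte list was above the reference for 9, 7 and 7 of 10 genes on 43h-AC arrays 1, 2 and 3, and for 9, 10 and 10 on the 32h-AC arrays. Of 4 blastocyst lineage genes Sox17, an endoderm factor, rose by 1.44 on the log2 scale, against 4.92% of all probes that rose. Scaled to 1 interquartile range its difference was 0.39 (adjusted p = 0.46), and 2 of 6 fits without an AC array called it.

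**Figure D3:**
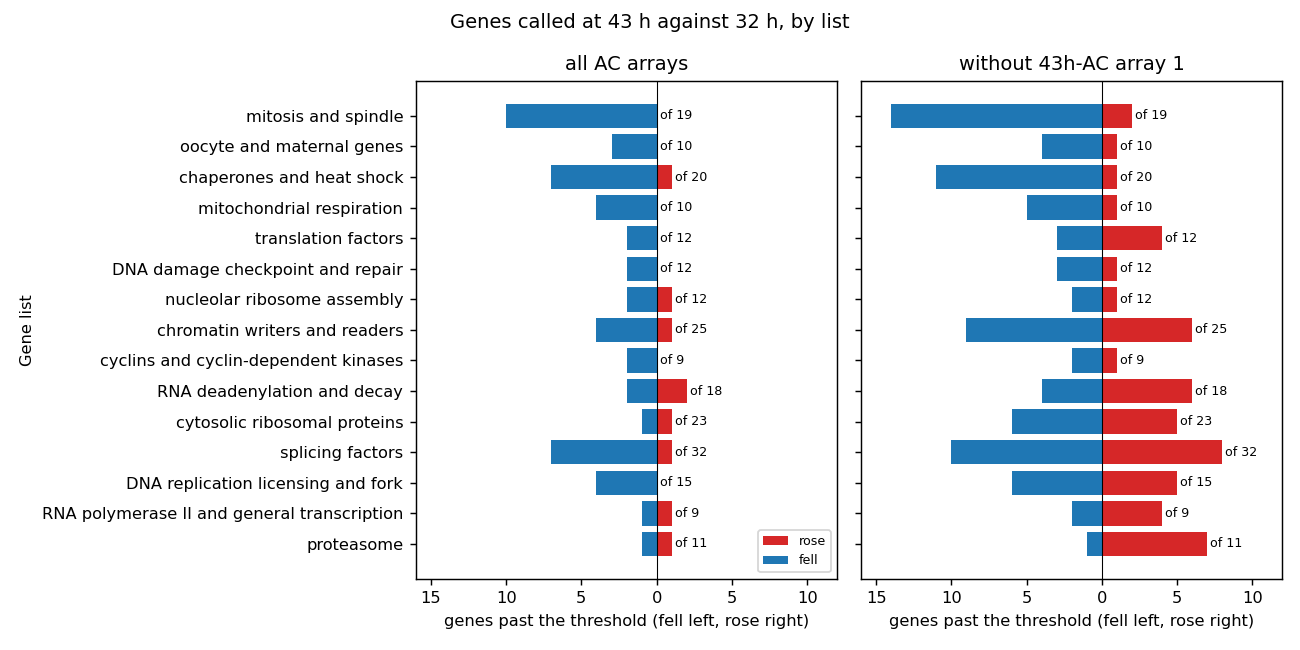
Number of measured genes in each list of at least 9 that rose (red, to the right) or fell (blue, to the left) at 43h-AC against 32h-AC (limma adjusted p under 0.05), with all AC arrays and without 43h-AC array 1. The label gives the measured genes of the list. Mitosis and spindle has 10 falls and 0 rises of 19 with all arrays.

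The same hours were then set beside each other in the other treatments. In DMSO embryos, 4617 probes (20.5%) differed between 43 and 32 h, 2980 (13.2%) higher and 1637 (7.25%) lower. In control embryos 540 (2.39%) differed, 52 (0.23%) higher and 488 (2.16%) lower. In AM embryos 546 (2.42%) differed, 109 (0.483%) higher and 437 (1.94%) lower. The treatments share no arrays in these contrasts, only the estimate of spread. Of the 3140 probes called in AC embryos, 1739 were called in the same direction in DMSO embryos, which is 55.4% of the AC calls and 37.7% of the DMSO calls, and 0 in the opposite direction. With controls 478 were shared, 15.2% of the AC calls and 88.5% of the control calls, and with AM 392, 12.5% and 71.8%.

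Most probes called in AC embryos leaned the same way elsewhere. Among all 22575 probes, called or not, 13041 were positive in DMSO, 13220 in control and 13216 in AM embryos. Of the 1111 that rose, 96.2% were positive in DMSO, 97.4% in control and 97.2% in AM embryos, with median differences of 1.29 in AC, 1.25 in DMSO, 0.44 in control and 0.64 in AM embryos. Of the 2029 that fell, 98.7%, 97.5% and 92.3% were negative, with medians of -1.61 in AC, -1.14 in DMSO, -0.89 in control and -0.69 in AM embryos. These probes were chosen in AC embryos, so a larger AC median is part of the choice. After 43h-AC array 1 was left out, 5815 probes rose with a median of 1.42 in AC and 0.90 in DMSO embryos, and 4646 fell with a median of -1.65 in AC and -0.66 in DMSO embryos. In the stage set, which shares no array with the treatment set, 89.4% of the 3140 AC calls had the same sign in 2-cell embryos against fertilized eggs. The share of all probes with the same sign there was not counted.

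The 28 leading genes were then followed across the treatments. Of the 14 falls 12 also fell in DMSO, 7 in control and 8 in AM embryos, against 7.25%, 2.16% and 1.94% of all probes. Of the 14 rises 12 rose in DMSO, 1 (Tspan4) in control and 0 in AM embryos, against 13.2%, 0.23% and 0.483% of all probes. Few probes of any kind thus rose in control and AM embryos. Rgs2 differed by -4.15 in AC, -4.13 in DMSO, -3.71 in control and -3.08 in AM embryos, and fell in all of them. Aspm differed by -3.77, -3.76, -3.07 and -3.29 in the same order, again a fall in each. Tspan4 rose by 2.30 in AC, 2.90 in DMSO and 2.07 in control embryos, and stood 0.51 higher in AM embryos (adjusted p = 0.74 by limma). Gja1 rose by 1.90 in AC and 1.54 in DMSO embryos, and in AM embryos its difference was 0.19 (adjusted p = 0.93 by limma). Zbed3 and Pnn fell in AC embryos and had differences of -0.29 and 0.23 in AM embryos.

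**Figure D4:**
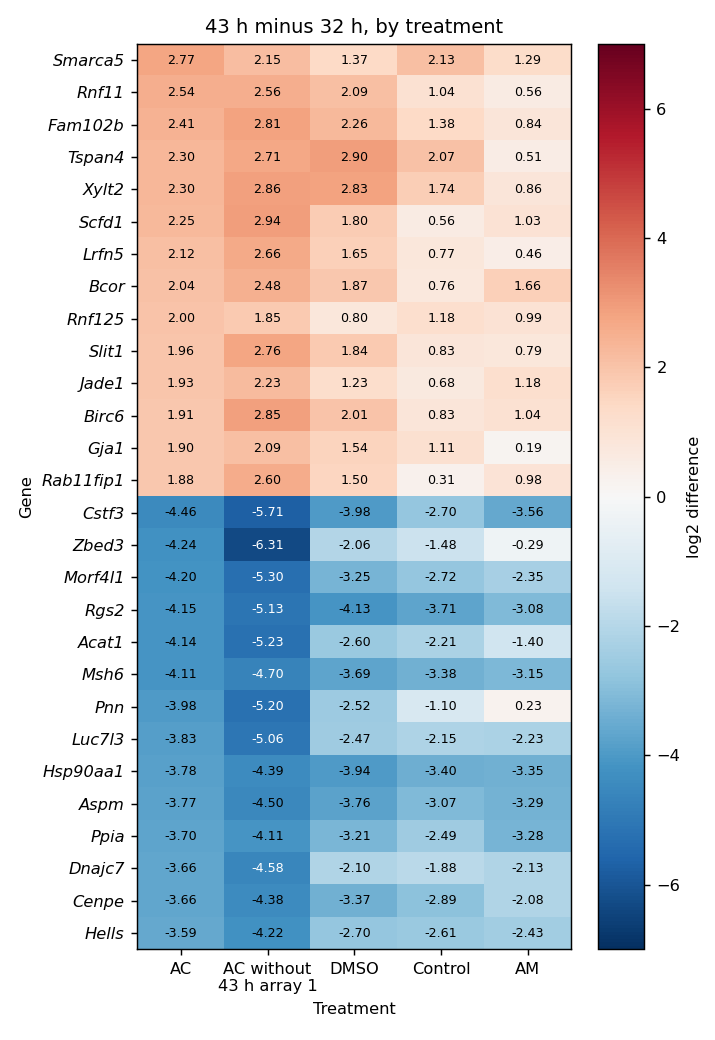
Difference between 43 and 32 h (log2) of the 28 leading genes in AC embryos, in AC embryos without 43h-AC array 1, and in DMSO, control and AM embryos. The genes were chosen by the first column, and 27 of the 28 have the same sign in AM embryos, the exception being Pnn (0.23). Of all 22575 probes, 13216 were positive in AM embryos.

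Whether the change itself differed between treatments was tested as AC change minus the other change. With all arrays, limma called 0 probes against DMSO, 0 against control and 0 against AM embryos (841, 559 and 1111 at an unadjusted p under 0.05). Without 43h-AC array 1 it called 41 probes (0.182%) against DMSO, 7 (0.031%) with a more positive and 34 (0.151%) with a more negative change in AC. It called 259 (1.15%) against control, 45 (0.199%) more positive and 214 (0.948%) more negative in AC, and 1159 (5.13%) against AM, 159 (0.704%) more positive and 1000 (4.43%) more negative. The 41 calls against DMSO turned on single arrays. There were 0 without 32h-AC array 2, 32h-DMSO array 1 or 43h-DMSO array 3, and 1 without 32h-AC array 3, 32h-DMSO array 2 or 32h-DMSO array 3. There were 5 without 32h-AC array 1, 3 without 43h-DMSO array 1, 12 without 43h-AC array 2 and 130 without 43h-DMSO array 2. Without 43h-AC array 3 as well there were 2331, with 1 array left for 43h-AC that is assumed to vary like the other groups.

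The named genes among the 41 were 7. Rgs9, a regulator of G protein signalling in photoreceptors and striatum, stood at 0.54, -2.47 and -2.54 on the 43h-AC arrays, against -0.26, 0.30 and -0.36 on the 32h-AC arrays. Array 1 at 43 h was the highest of the 6 and arrays 2 and 3 the lowest. Without array 1 its AC change was -2.40 and its DMSO change 1.06, a difference of -3.46 ± 0.52 (SE, adjusted p = 0.0084 by limma). Sirt3, the mitochondrial deacetylase, Tgs1, which hypermethylates the cap of small RNAs, Pank3, an enzyme of coenzyme A synthesis, Ttll5, which adds glutamates to tubulin, and Aldoc, an aldolase, had more negative changes in AC, by -4.47, -3.12, -3.11, -2.32 and -1.92 (adjusted p = 0.048 each by limma). Rad50, of the complex that senses double-strand breaks, stood at 0.20, 1.17 and 1.07 on the 43h-AC arrays, against 0.83, 0.79 and 0.49 on the 32h-AC arrays. Without array 1 its AC change was 0.42, not past the threshold, and its DMSO change -0.98, a difference of 1.40 ± 0.29 (SE, adjusted p = 0.048 by limma).

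Among 255 genes of the lists, 1 (Rad50) differed in its change between AC and DMSO, 1 (Ccnc) between AC and control and 13 between AC and AM embryos without 43h-AC array 1, against 0.182%, 1.15% and 5.13% of all probes. All 13 were more negative in AC, as were 1000 of the 1159 probes called against AM. The count of 13 is near the share of all probes, so it shows nothing particular to the lists. Cdc7 differed by -2.06 in AC without array 1 and by 0.44 in AM embryos, a difference of -2.50 (adjusted p = 0.0052 by limma). Ccnc differed by -2.56 and -0.13 in the same order (adjusted p = 0.018 for the difference by limma). The others included Cenpe, Rgs2, Hspa9, Dnajc7, Trp53bp1, Pan2, Atp5g1, Eif5 and Sycp2. Probes of Eif5 disagreed: one fell by 1.85 on the log2 scale with all arrays, and another rose by 2.06 without array 1.

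**Figure D5:**
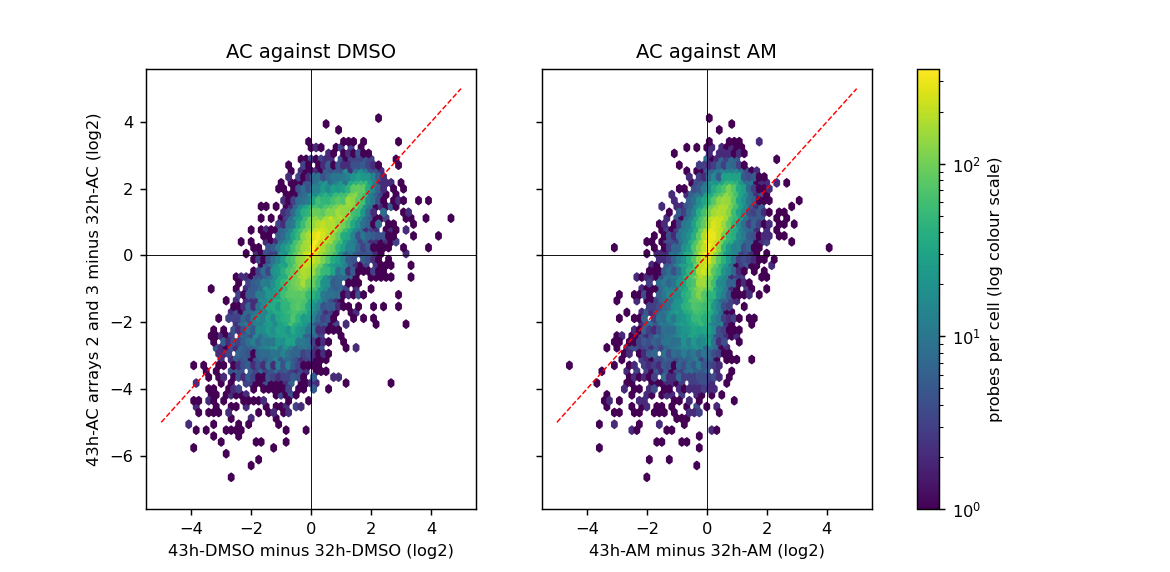
Difference between 43 and 32 h (log2) over all 22575 probes in AC embryos without 43h-AC array 1 (vertical) against DMSO embryos (left) and AM embryos (right), coloured by the number of probes per cell on a log scale, with the line of equal change dashed. Across probes, which are not independent, Pearson's r was 0.728 against DMSO and 0.623 against AM embryos.

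At 43 h itself, AC against DMSO embryos differed in 2 probes with all arrays (0.00886%), 1 higher and 1 lower (0.00443% each), and in 3403 (15.1%) without 43h-AC array 1, of which 1092 (4.84%) were higher and 2311 (10.2%) lower in 43h-AC. At 32 h, AC against DMSO embryos differed in 0 probes by limma (181 at an unadjusted p under 0.05). Without array 1 of 43h-AC, Zbed3 was -4.70 against 43h-DMSO on the log2 scale, Dnajc7 -2.77, Acat1 -2.77 and Rab11fip1 1.23, each past the threshold. Dnajc7 and Acat1 had a value at a limit on the AC arrays, so their differences may be bounds. Rgs2, Msh6, Hsp90aa1 and Aspm were not past it, with differences of -0.71, -0.92, -0.55 and -0.76.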

How the data were processed

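The authors deposited a table of log10 ratios for 2-colour arrays with embryo RNA in one channel and a common reference in the other. How these log10 values were background-corrected and normalized is not given in the sources used here, and neither are their base and direction, which were read from the values. The sign was turned, values were multiplied by log2(10), and each array was centred on its median. Tests used limma 3.58.1 in R 4.3.3, with 1 mean per group over 36 arrays of 12 groups of 3, and two-sided p-values adjusted by Benjamini-Hochberg over 22575 probes, with a threshold of 0.05. Probes were named through the platform annotation, 4247 of the 4262 with 1 symbol being matched by Entrez number. Named genes were the 14 largest rises and falls with all arrays and again without 43h-AC array 1, up to 8 in each direction for AC against DMSO change, up to 6 a gene list in each direction, and a fixed list of replication and arrest genes. Genes with several probes were named by the probe of largest difference. The members and lists were chosen with earlier results of these data known. The code was tested on simulated data. Alternatives were values as deposited, quantile normalization, scaling to 1 interquartile range, probes above the median, no probes at a limit, array weights (gene by gene), a variance trend, the compared arrays alone, a replicate block and leaving out each array. For array ratios no depth applies. The number of arrays limits the precision.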

Additional observations from a re-analysis of the deposited data

Results flagged for a closer look

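Without 43h-AC array 1, the change between 43 and 32 h differed between AC embryos and another treatment for a small share of probes, by the limma test of the difference itself. It differed from DMSO embryos for 41 probes (0.182%), from control embryos for 259 (1.15%) and from AM embryos for 1159 (5.13%). The 41 calls were not stable to the settings given below. With all arrays each of these tests called 0 probes, so all of them turn on that array.

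Named genes with a more negative change in AC than in DMSO embryos, without that array, were Sirt3 (-4.47), Rgs9 (-3.46), Tgs1 (-3.12), Pank3 (-3.11), Ttll5 (-2.32) and Aldoc (-1.92), all on the log2 scale. Rad50 had a more positive change, by 1.40. In Rgs9 the change was -2.40 in AC and 1.06 in DMSO embryos, and in Sirt3 it was -3.61 in AC and 0.86 in DMSO embryos. Sirt3 stood at the lower limit on 43h-AC array 2, which makes its difference a bound on that side. Of 11 fits that left out 1 more array of the compared groups, Rgs9 passed in 8 and the other 6 genes in 2 each.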

How the results depend on the processing

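With all arrays, 3140 probes differed between 43h-AC and 32h-AC. Leaving out 1 AC array gave 627 to 10461 calls. There were 1992 calls among probes above the array median, of which 52.4% were higher, against 35.4% of the 3140, and 45.7% were higher with arrays scaled to 1 interquartile range. Weighting arrays gene by gene gave 10250 calls, and taking the spread from the compared arrays alone gave 0. Without 43h-AC array 1, the 10461 calls became 6173 among probes above the median and 5097 to 9944 when 1 more AC array was left out. The replicate numbers did not pair the AC arrays (correlations of same-numbered deviations of -0.18, 0.19 and -0.18), while those of the DMSO arrays were 0.17, 0.28 and 0.12, and the replicate block gave 4482 calls with all arrays and 9766 without array 1. The test of AC against DMSO change gave 71 calls with array weights and 0 to 41 over the fits without 1 array. The same test without 43h-AC array 1 (41 calls) gave 1 on values as deposited, 128 after quantile normalization (64.8% more positive, against 17.1%), 2 scaled to 1 interquartile range, 1 without probes at a limit, 0 for probes above the median, 0 from the compared arrays alone, 372 with array weights, 135 with the replicate block, and 0 to 2331 over the fits without 1 more array. Leaving out 21h-Control array 1, an alternative chosen after seeing the data, gave 508. Against control change, array weights gave 343 calls and the fits without 1 array 0 to 259. Against AM change, they gave 1167 and 0 to 1159. Directions turned for single probes. Scaled to 1 interquartile range, Rpl4 went from -1.64 to 0.27 and Hmgb1 from 1.39 to -0.45 with all arrays. Without array 1, Eef2 went from -1.26 to 1.17, Luc7l2 from 1.79 to -0.16 and Sf1 from 1.58 to -0.16. Cnot6 went from -0.97 to 0.11 and Lsm2 from -0.78 to 0.29. Another probe kept its sign under that scaling in Luc7l2 (1.67 to 3.51, all arrays) and in Eef2 (1.12 to 2.62, without array 1). With 32h-AC array 3 also left out, chosen after seeing the data, Rad50 stood at -0.07, Eef2 at 0.49, Sf1 at -0.22, Cnot6 at 0.16 and Lsm2 at 0.28. Rad50 was also -0.07 after quantile normalization. Wee1 without array 1 stood at -0.02 on values as deposited, at -0.19 with the replicate block and at -0.45 to 0.55 when 1 more array was left out. The cause of these turns was not tested. The number of arrays, and values at the table's limits, bound the precision.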
